A study of Homo sapiens with 12 samples.

Results

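The control cells of both cell line labels were compared: the 3 control libraries labelled MOLM14 against the 3 K562 control libraries, 6 of the 12 libraries of the series. The other 6 libraries, 3 for each label, come from cells that overexpress EVI1, the zinc finger protein of the MECOM gene. For every library the source is a human leukaemia cell line and expression was measured by RNA sequencing of total RNA. The controls of both labels are marked as wild type in the treatment field, and no drug, dose, time, clone or shared vector is named for them.

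K562 grew out of chronic myeloid leukaemia in blast crisis, carries the BCR-ABL1 fusion and expresses many erythroid genes together with some megakaryocytic ones. MOLM14 was derived from acute monocytic leukaemia and is known for a KMT2A fusion and an internal tandem duplication in FLT3, a receptor tyrosine kinase; lines of that kind typically express FLT3 and the later HOXA genes. A direct comparison of controls asks how far the cells under the 2 labels differ before EVI1 is raised. Nothing in the labels ties the 3 libraries of a group to separate cultures, so the p-values measure only the spread between these samples, which may be technical.

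The values are FPKM, fragments scaled to transcript length and library size, which can be compared between genes of different length. Gene names could be used for both labels in 5510 of 58191 rows, those above the first identifier that ends in _PAR_Y. In 55 windows of 100 such rows the control means of both labels correlated across genes at 0.944 or more, while r was 0.041 in the 500 rows that follow. Of the 5510 genes, 3770 reached 1 FPKM in at least 3 of the 6 control libraries and were tested. Summed FPKM ran from 599102 to 625098 in the controls labelled MOLM14 and from 818341 to 889768 in K562 controls, and the 10 highest rows held 5.66% to 5.87% and 10.2% to 13.2% of it. Read roughly from the spacing of low values, 6 to 26 per library, 1 fragment in a transcript of 1 kilobase was worth 0.0276 to 0.0331 FPKM under the label MOLM14 and 0.0159 to 0.0294 FPKM in K562, a lower value meaning a deeper library. The labels may have been normalised in separate runs, so cell line label and processing cannot be told apart. Each library was therefore reduced to its ranks, mapped to 1 common distribution of log2(FPKM + 1), and a gene was called only where the difference between labels was tested to exceed 2-fold. Differences below are on that log2 scale, label MOLM14 minus K562, with their standard error; the added 1 understates the change of genes near or below 1 FPKM.

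Several line markers went against the label MOLM14. RHAG, GATA1 and TFRC of the red cell lineage were highly expressed under both labels, while FLT3 and the HOXA genes were at or near 0 under both. Other genes stood partly apart from this. Without a fold limit, 37.2% of all 3770 tested genes were lower under the label MOLM14 and 36.6% higher. Of 15 tested erythroid genes 10 were lower and 5 higher. RHAG and TFRC were among the 5, each at 0.16 by ranks. MEF2C, LYZ, SPI1, CD33 and TYROBP, genes that monocytic lines express, were present under both labels and higher under the label MOLM14 without that limit. Their lists were mixed. Of 8 tested monocyte genes 6 were higher and 2 lower, CYBA at -1.17 among these. Of 7 tested genes in the KMT2A-fusion list 4 were higher and 2 lower, LGALS1 at -1.09 among these. RHAG, part of the Rh antigen complex of red cells, had 362, 368 and 348 FPKM in the controls labelled MOLM14, against 383, 373 and 373 FPKM in K562 controls. GATA1, the master transcription factor of erythroid cells, had 107, 123 and 109 FPKM under the label MOLM14 and 148, 150.0 and 151 FPKM in K562. TFRC, the transferrin receptor, had 198, 184 and 179 FPKM in the controls labelled MOLM14 and 193, 188 and 196 FPKM in K562. GATA1 ranked above 91.3% of the tested genes under the label MOLM14 and RHAG and TFRC higher still, and of the 3 only TFRC had values that overlapped between the groups. FLT3 was listed at 0 in all 6 control libraries and reached 0.00915 FPKM in 1 EVI1 library. Of 9 HOXA genes in the usable rows, 7 were listed at 0 in all 3 controls labelled MOLM14, and the highest value of any of them or of FLT3 was 0.0352 FPKM there and 0.0573 FPKM in K562 controls. HOXA9 and HOXA7, the hallmark genes of KMT2A fusions, were at 0 in all 6 controls, as were CTSG, a granule protease of myeloid cells, and MTAP, a methionine salvage enzyme whose gene is deleted in K562. MPO, the myeloperoxidase of the granulocyte line, stayed at or below 0.0595 FPKM. KMT2A itself had 22.8 to 25.4 FPKM under the label MOLM14 and 21.4 to 22.4 FPKM in K562, and ABL1, the kinase partner of BCR, 54.5 to 58.6 FPKM and 63.6 to 68.9 FPKM. The groups are called by their labels in what follows, and no other line is named for them.

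**Figure D1:**
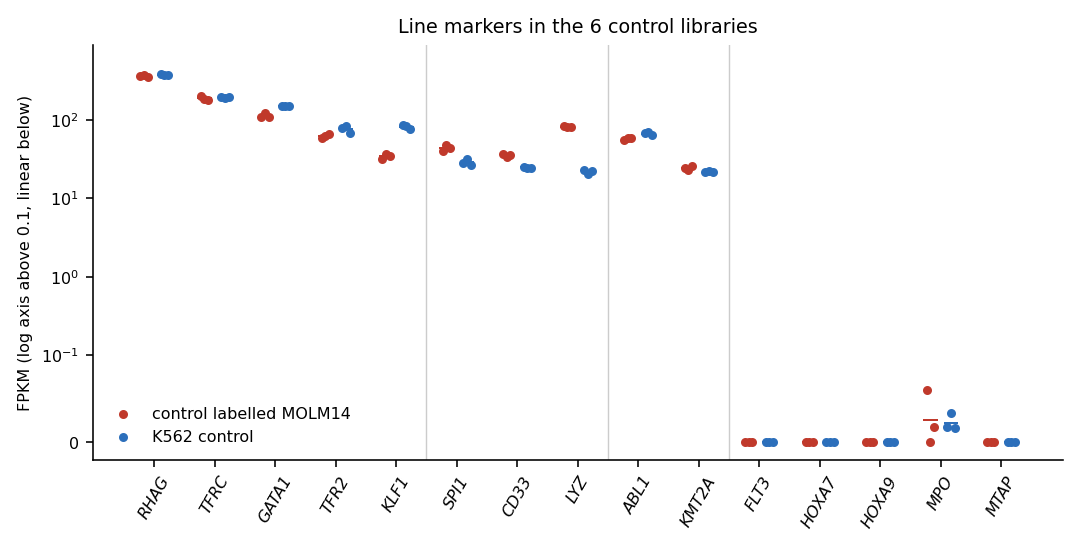
FPKM of 15 line markers in each control library (y axis, logarithmic above 0.1 and linear below), controls labelled MOLM14 in red left of K562 controls in blue; points are libraries and short lines are group means. Erythroid genes such as RHAG, at 348 to 368 FPKM under the label MOLM14, lie high in both groups, while FLT3, HOXA7, HOXA9 and MTAP lie at 0 in all 6 libraries.

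Expression of the 3770 genes was close between the labels. Of the 50 genes with the highest levels in each group 44 were shared, as were 78 of 100, 393 of 500 and 819 of 1000. Spearman's rho across genes, which are not independent replicates, was 0.9926 to 0.9941 among the controls labelled MOLM14, 0.9924 to 0.9965 among K562 controls and 0.8981 to 0.9365 between the labels. The difference between labels lay within 2-fold for 3317 genes, 88.0%, with quartiles of -0.46 and 0.42 around a median of 0.00. Beyond 4-fold lay 23 genes on the higher and 14 on the lower side.

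Against a 2-fold limit, limma called 133 genes at a Benjamini-Hochberg adjusted p under 0.05, 3.53% of those tested: 77 higher (2.04%) and 56 lower (1.49%) in the controls labelled MOLM14. The FPKM values of the groups did not overlap for any of the 133, but that held for 2935 genes, 77.9% of those tested. Of the 77, 15 were below 1 FPKM in all 3 K562 controls, and of the 56, 8 were below 1 FPKM in all 3 controls labelled MOLM14. Such genes passed the filter only through the group where they were high and so had to differ. This holds also where they are counted in a list below. PLA2G4A, TWIST1, RCN1, GPATCH2, STAP1, PDK4, LIFR, ULBP1, GCA, SCIN, ITGA4, GDA, CCL2 and TMEM189-UBE2V1 are among them. Without the fold limit limma called 1380 genes higher (36.6%) and 1401 lower (37.2%), 73.8% in all. Counts within the lists below are to be read beside these shares and those for the 2-fold limit. The split beyond 2-fold depended on the scaling. Values as deposited, whose median difference was 0.07, gave 103 higher and 51 lower, centring on the median gave 73 and 90, and ranks taken over all rows gave 103 and 47. Leaving out K562 control replicate 1 left 56 higher and 37 lower.

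**Figure D2:**
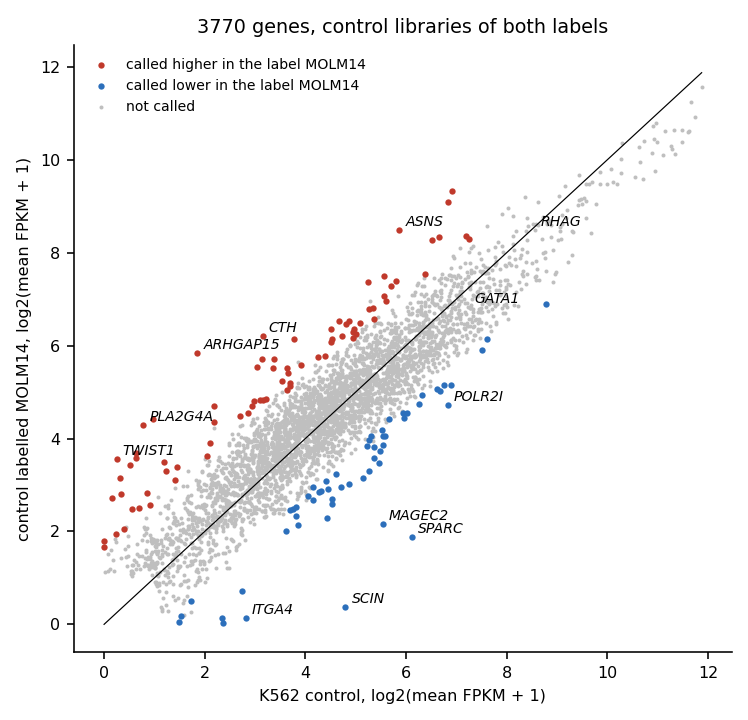
Log2 of mean FPKM + 1, as deposited, of 3770 genes in the controls labelled MOLM14 (y axis) and in K562 controls (x axis), each point a gene; red points are the 77 genes called higher under the label MOLM14 and blue points the 56 called lower, and the line marks equal levels. Most genes lie along the line, with ARHGAP15 and PLA2G4A far above it and SCIN and SPARC far below it.

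The gene that stood highest above K562 was ARHGAP15, a GTPase-activating protein. It lies on chromosome 2 from 143091362 to 143768352 (GRCh38). ARHGAP15 had 70.3, 55.7 and 43.2 FPKM in the controls labelled MOLM14, against 3.14, 1.82 and 2.89 FPKM in K562 controls. The lowest library labelled MOLM14 was well above the highest K562 library, with a difference of 3.90 ± 0.19 (SE, n = 3 each; limma adjusted p = 3.61e-06). PLA2G4A, the cytosolic phospholipase that frees arachidonic acid from membranes, lies on chromosome 1 from 186828953 to 186988981. It had 20.5, 17.4 and 17.4 FPKM under the label MOLM14 and 0.751, 0.599 and 0.809 FPKM in K562, a difference of 3.30 ± 0.10 (SE). LRMP, a membrane protein of lymphoid cells, had 21.4, 19.3 and 20.6 FPKM in the controls labelled MOLM14 and 0.982, 0.706 and 1.16 FPKM in K562 controls. These 3 genes kept the sign in the libraries with EVI1, with differences of 4.78, 3.00 and 2.54 between labels there.

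TWIST1, a transcription factor of mesenchymal cells, had 10.7, 12.4 and 9.05 FPKM in the controls labelled MOLM14 and 0.205, 0.211 and 0.161 FPKM in K562 controls. All 3 K562 controls were thus far below 1 FPKM, and the difference of 3.11 ± 0.12 in controls stood beside 0.14 in EVI1 libraries. RCN1, a calcium-binding protein of the endoplasmic reticulum, differed by 2.83, GPATCH2 by 2.72, STAP1, an adaptor of B cell receptor signalling, by 2.71, and PDK4, a kinase that shuts off pyruvate dehydrogenase, by 2.68. Each of these 4 lay at 6.95 FPKM or more in every control labelled MOLM14 and below 1 FPKM in every K562 control. In EVI1 libraries PDK4 differed by 2.22 and RCN1 by 1.17, GPATCH2 by 0.13 and STAP1 by -0.51.

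On the lower side SCIN, an actin-severing protein described in megakaryocytes, led the list. SCIN lies on chromosome 7 from 12570577 to 12660179 and had 0.278, 0.402 and 0.233 FPKM in the controls labelled MOLM14, against 27.5, 25.05 and 27.8 FPKM in K562 controls. The groups were widely separated, with a difference of -4.53 ± 0.10 (SE, n = 3 each), against -0.67 in EVI1 libraries. SPARC, a matrix glycoprotein stored in platelets, lies on chromosome 5 from 151661096 to 151687165 and had 1.64, 2.90 and 3.57 FPKM under the label MOLM14 and 69.6, 71.8 and 64.4 FPKM in K562. Its difference was -4.33 ± 0.17 in controls (SE; limma adjusted p = 7.80e-07) and -2.53 in EVI1 libraries. MAGEC2, a cancer-testis antigen that is silent in most adult tissues, had 3.20, 3.64 and 3.53 FPKM in the controls labelled MOLM14 and 45.9, 44.6 and 46.0 FPKM in K562 controls. The difference of MAGEC2 was -3.48 in controls and -1.03 in EVI1 libraries.

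ITGA4, the alpha 4 integrin chain that binds VCAM1 and fibronectin, had 0.0917, 0.0431 and 0.141 FPKM in the controls labelled MOLM14 and 6.40, 5.85 and 5.91 FPKM in K562 controls (difference -2.84). GDA, a guanine deaminase, differed by -2.34 and EPHB6, an Eph receptor without kinase activity, by -2.29. CCL2, a chemokine that attracts monocytes, was listed at 0 in 2 of the 3 controls labelled MOLM14 and at 0.0567 FPKM in the other, against 3.27, 7.46 and 1.68 FPKM in K562 controls. The K562 values of CCL2 spread more than 4-fold, and the call (limma adjusted p = 0.0390) was lost in 4 of the 6 fits that left out 1 library, where the adjusted p reached 0.109. RPUSD1, a pseudouridine synthase, POLR2I, a subunit of RNA polymerase II, and the readthrough transcript TMEM189-UBE2V1 completed the 10 largest, at -2.10, -2.09 and -2.20. The readthrough shares its exons with both parent genes on the same strand, so its value is uncertain. Since strand use is not stated, reads of SCIN, SPARC, RPUSD1, POLR2I, LRMP and TWIST1 cannot be told apart from those of genes annotated on the other strand. Such overlaps were annotated for 28 of 69 genes called higher, 27 of 52 called lower and 41.8% of the 3448 tested genes with a position. LYZ, MEF2C, SOCS2, LIFR, LTBP1, BCL6, NOP16, MRTO4, MTHFD2, GARS, CARS, NCKAP1L, ICAM3 and ID2, described below, are among the others with such partners, and ASNS overlaps a gene on its own strand.

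**Figure D3:**
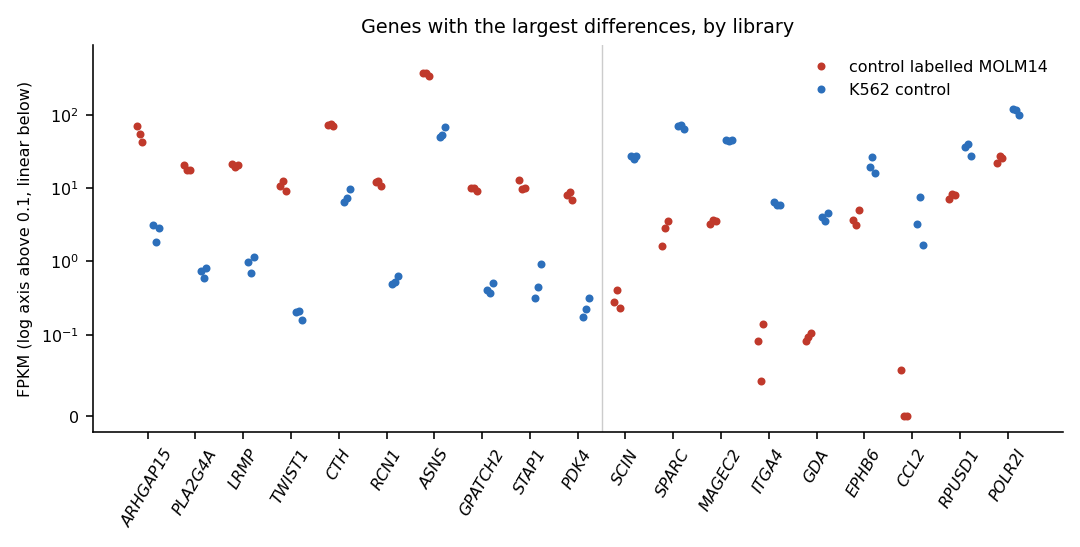
FPKM of the named genes with the largest differences in each control library (y axis, logarithmic above 0.1 and linear below), those higher under the label MOLM14 left of the grey line and those lower right of it; red points are controls labelled MOLM14, blue points K562 controls. The groups do not overlap for any gene shown because the genes were chosen by that rule, and CCL2 runs from 1.68 to 7.46 FPKM in K562 controls.

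The most uniform group among the genes called higher were those of amino acid supply. ATF4 is the transcription factor of the integrated stress response; it raises enzymes that make amino acids, importers that bring them in and synthetases that load them onto tRNA. Of 19 tested members of this list, 8 were called higher and the other 11 were not called, with a median difference of 1.21; over all 3770 genes, 77 were higher, 56 lower and the median was 0.00. Without the fold limit 16 members were higher and 1 lower. The count was 8 in each of the 6 fits that left out 1 library, and 12 where a trend of GC content and length was removed.

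Among the enzymes, ASNS, which makes asparagine and lies on chromosome 7 from 97852118 to 97872542, had 374, 368 and 338 FPKM in the controls labelled MOLM14, against 49.5, 53.4 and 69.3 FPKM in K562 controls. ASNS thus ranked above 98.1% of the tested genes under the label MOLM14 and above 78.4% in K562, a difference of 2.80 ± 0.11 (SE, n = 3 each; limma adjusted p = 3.16e-06). CTH, which makes cysteine from cystathionine, had 72.8, 75.1 and 70.3 FPKM under the label MOLM14 and 6.57, 7.35 and 9.69 FPKM in K562, a difference of 3.04. MTHFD2, a mitochondrial enzyme of one-carbon metabolism, had 319, 319.9 and 289.6 FPKM in the controls labelled MOLM14 and 90.7, 86.4 and 95.4 FPKM in K562 controls. In all 3 enzymes the groups were separated by more than the spread of either.

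Of the synthetases, GARS, CARS and SARS, which charge tRNA with glycine, cysteine and serine, were higher by 1.88, 1.69 and 1.39. GARS had 331, 325 and 311 FPKM in the controls labelled MOLM14 and 99.6, 97.7 and 102 FPKM in K562 controls. The neutral amino acid carrier SLC1A4 was higher by 1.53, while SLC7A5, the importer of leucine and other large amino acids, differed by 1.21 (limma adjusted p = 0.320) and was not called. TRIB3, a pseudokinase induced by ATF4, had 88.8, 99.4 and 87.1 FPKM under the label MOLM14 and 24.0, 25.8 and 23.2 FPKM in K562, a difference of 1.91. PHGDH, the first enzyme of serine synthesis, differed by 1.38 and AARS, the alanine synthetase, by 1.12, and neither was called beyond 2-fold.

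The same list lay on the other side between the EVI1 libraries of both labels, which share no library with the controls. There 5 of the 19 were called lower, none was called higher, and the median was -0.66, while limma called 70 genes higher and 139 lower of 3770 (1.86% and 3.69%, 5.54% in all). ASNS averaged 60.5 FPKM in EVI1 libraries labelled MOLM14 and 236 FPKM in those of K562, and TRIB3 17.7 and 59.9 FPKM. For CTH and MTHFD2 the difference in EVI1 libraries was -1.07 and -0.66. Of the 77 genes called higher in controls, 10 were called higher and 9 lower in the EVI1 libraries, and 47 had the same sign. Of the 56 called lower, 11 were called lower and 1 higher there, and 40 had the same sign. Over all 3770 tested genes, called or not, 2452 had the same sign, so the counts of shared signs do not set the called genes apart.

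Proteins of the endoplasmic reticulum, where folding stress can also reach ATF4, were mixed. HERPUD1, which helps clear misfolded proteins, had 70.1, 68.1 and 71.8 FPKM in the controls labelled MOLM14 and 10.5, 12.8 and 14.7 FPKM in K562 controls, a difference of 2.35 ± 0.11 (SE; limma adjusted p = 1.58e-05). XBP1, the transcription factor spliced by IRE1, was higher by 1.45, and with the GC and length trend removed its 1.18 was no longer called. HSPA5, the main chaperone of that compartment, differed by 1.23 and missed the threshold (limma adjusted p = 0.0546). HSPH1, a cytosolic chaperone, and HSPE1, a mitochondrial co-chaperone, differed by -1.26 and -1.33 and were not called. In the whole list of 23 tested members 2 were called higher, and the median was 0.15, or -0.07 after centring on the median.

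**Figure D4:**
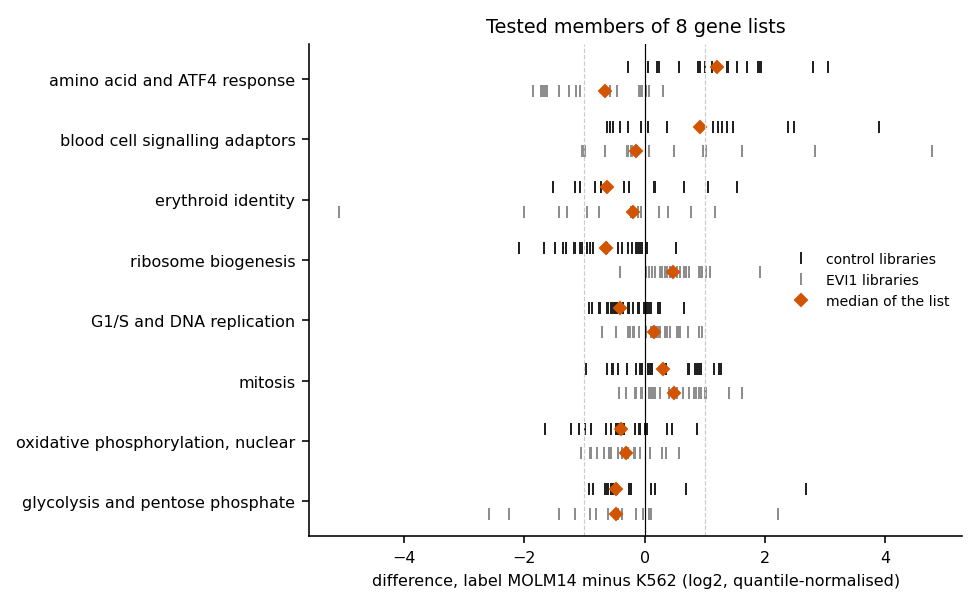
Difference between labels, MOLM14 minus K562 (x axis, log2 of quantile-normalised FPKM + 1), for the tested members of 8 gene lists (rows); each black tick is a gene in the control libraries, each grey tick the same gene in the EVI1 libraries, diamonds are list medians and dashed lines mark 2-fold. The median of the amino acid list is 1.21 in controls and -0.66 in EVI1 libraries.

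Signalling proteins of white blood cells formed another group on the higher side. Blood cells use adaptors and phosphatases to couple surface receptors to actin. Of 17 tested members of this list 5 were called higher and 12 were not called, with a median of 0.92, where 2.04% of all genes were called higher. Without the fold limit 10 members were higher and 4 lower, against 36.6% and 37.2% of all genes. WAS, the actin regulator mutated in Wiskott-Aldrich syndrome, lies on the X chromosome from 48676596 to 48691427. It had 50.1, 56.8 and 48.0 FPKM in the controls labelled MOLM14 and 7.71, 7.81 and 8.02 FPKM in K562 controls, a difference of 2.48 ± 0.08 (SE, n = 3 each; limma adjusted p = 1.10e-06). PTPRC, the receptor phosphatase CD45 of all white blood cells, had 59.9, 43.1 and 34.1 FPKM under the label MOLM14 and 6.90, 7.34 and 7.32 FPKM in K562. The libraries labelled MOLM14 spread widely for PTPRC, yet the lowest was over 4 times the highest K562 library. NCKAP1L, a haematopoietic subunit of the WAVE complex, was higher by 1.46. WAS and PTPRC kept the direction in EVI1 libraries, at 2.83 and 1.62, while NCKAP1L stood at 0.07. The list as a whole did not, with 3 members called higher and a median of -0.14 in EVI1 libraries, and in controls its median was 0.06 over the 23 members without the filter on low values. The fits that left out 1 library called 4 or 5 members, and the fit without the GC and length trend called 6.

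Receptor and kinase genes of cytokine signalling followed in part. The counts called higher in their lists stand beside 2.04% of all tested genes. JAK2, the kinase that carries signals of erythropoietin and related cytokines, had 29.1, 27.3 and 24.3 FPKM in the controls labelled MOLM14 and 6.60, 6.24 and 7.84 FPKM in K562 controls, a difference of 1.69. SOCS2, a feedback inhibitor of these receptors, had 132, 131 and 134 FPKM under the label MOLM14 and 46.3, 48.1 and 43.4 FPKM in K562, a difference of 1.59. BCL6, a transcriptional repressor and target of STAT proteins, was higher by 2.00. These were the 3 members called among 12 tested in the JAK-STAT list, whose median was 0.24; in EVI1 libraries none of the 3 was called, with JAK2 at 0.92, SOCS2 at -0.33 and BCL6 at -0.61. Of 16 tested receptors of cytokines and growth factors, LIFR, LEPR and IFNGR1 were called higher, by 1.44, 1.36 and 1.31. LIFR, below 1 FPKM in every K562 control, passed the filter only through the label MOLM14. None of the 3 receptors was called once the GC and length trend was removed. Without K562 control replicate 1 none of them was called either, with limma adjusted p of 0.161 for LIFR, 0.0682 for LEPR and 0.175 for IFNGR1. Over the 6 fits that left out 1 library, LIFR was lost in 5, IFNGR1 in 4 and LEPR in 1. JAK2 was also lost without the trend, at 1.28. LEPR shares exons with LEPROT on the same strand.

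Of 8 tested monocyte genes 2 were called higher, where 2.04% of all genes were. In bulk samples, fewer cells of a type and less RNA per cell cannot be told apart. Both are genes that other myeloid cells share. LYZ, lysozyme, had 82.3, 80.3 and 80.1 FPKM in the controls labelled MOLM14 and 23.1, 20.3 and 22.0 FPKM in K562 controls, a difference of 1.86 ± 0.07 (SE, n = 3 each; limma adjusted p = 2.10e-05). TYROBP, the adaptor DAP12 of myeloid activating receptors, had 25.3, 29.03 and 20.2 FPKM under the label MOLM14 and 3.83, 2.96 and 3.89 FPKM in K562, a difference of 2.36. In EVI1 libraries LYZ and TYROBP were higher by 1.35 and 1.90, but the list was mixed there, with 3 members called higher, 2 called lower and a median of -0.15. SPI1, which encodes the myeloid transcription factor PU.1, had 40.4, 48.3 and 44.0 FPKM in the controls labelled MOLM14 and 27.9, 31.8 and 26.8 FPKM in K562 controls; the groups did not overlap, but its 0.58 was not called beyond 2-fold. CD33, a sialic acid receptor of myeloid cells, differed by 0.42, and CYBA, a subunit of the phagocyte oxidase, by -1.17. These were the 2 members called lower in EVI1 libraries, at -2.30 and -1.28. Summed as deposited over the 23 members in the usable rows, the monocyte list held 496.9 to 556 FPKM under the label MOLM14 and 623 to 783 FPKM in K562. CYBA alone averaged 186 and 495 FPKM, a larger gap than that of the sums, and the labels may have been normalised apart. In the list 6 and 7 members were at 0 in every library of the group, MARCO, CCR2, FCN1 and CTSG among them.

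The erythroid list went weakly the other way. Of its 15 tested members, XK, a red cell membrane protein, was called higher, the other 14 were not called, and the median was -0.62. The lowest member stood at -1.52, and 2 were lower at limma's unadjusted p under 0.05 for the 2-fold limit. At a pseudocount of 0.1, and without the GC and length trend, 1 member was called lower. Without that trend XK was not called and the median was -0.14. KLF1, the activator of adult globin genes, had 32.0, 36.7 and 34.8 FPKM in the controls labelled MOLM14, against 84.6, 82.4 and 76.0 FPKM in K562 controls. The groups of KLF1 were separate, but the difference of -1.16 ± 0.07 was not called beyond 2-fold (limma adjusted p = 0.409), except at -1.32 after centring on the median. NFE2, an activator of globin and platelet genes, and HBQ1, the theta globin gene, differed by -0.82 and -0.72. Summed as deposited over 18 members the list held 1416 to 1480.2 FPKM under the label MOLM14 and 1718 to 1890.2 FPKM in K562. Among 14 tested genes of haem synthesis and iron handling limma called none beyond 2-fold, with 0 at an unadjusted p under 0.05 for that limit. Without the limit 2 were higher and 7 lower, where 36.6% and 37.2% of all genes were, and FTL, the ferritin light chain, differed by 0.00. In the megakaryocyte list of 11, SPARC was lower as described and LTBP1, which anchors latent TGF-beta in the matrix, was higher by 1.34, a call lost in 3 of the 6 fits without 1 library. TUBB1, the platelet tubulin, differed by -1.43 and missed the threshold (limma adjusted p = 0.0546).

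In the KMT2A-fusion list, where 7 of 19 members in the usable rows were high enough to test, MEF2C and SOCS2 were called higher. MEF2C, a transcription factor of myeloid and lymphoid progenitors, had 113, 112 and 104 FPKM in the controls labelled MOLM14 and 34.9, 35.7 and 41.1 FPKM in K562 controls. Its difference of 1.60 in controls stood beside 0.10 in EVI1 libraries and 1.15, not called, without the GC and length trend. LGALS1, a galectin in the same list, differed by -1.09. MECOM, the gene of EVI1, had 9.66, 9.02 and 8.55 FPKM under the label MOLM14 and 14.6, 11.2 and 10.9 FPKM in K562; every control labelled MOLM14 was lower, and the -0.58 was not called beyond 2-fold. Markers of other cells were few: 1 of 14 genes of T and NK cells and 6 of 14 of B and plasma cells reached the test, with sums of 6.60 to 7.41 FPKM and 152 to 159 FPKM under the label MOLM14, against 9.09 to 10.7 FPKM and 81.5 to 90.1 FPKM in K562. Of 17 fibroblast, endothelial and epithelial genes 8 were tested, and TWIST1, which passed the filter only through the label MOLM14, was called. The sum of the 17 as deposited was 804 to 851 FPKM under the label MOLM14 and 1125 to 1276 FPKM in K562. The part of these levels in the results was not tested.

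Promoters of RHAG, KLF1 and TYROBP are shown because RHAG is an erythroid gene at a like level under both labels, KLF1 one that was lower under the label MOLM14 without a call, and TYROBP the tested monocyte gene with the largest difference. They are 300 bases from RefSeq (GRCh38.p14), 250 before and 50 after the start, all on the minus strand: RHAG at chr6:49636790-49637089, KLF1 at chr19:12887152-12887451 and TYROBP at chr19:35908246-35908545. Capitals mark AGATAA or TGATAA, letters that GATA factors favour, or GAGGAAG, letters that PU.1 favours, read on either strand.
RHAG: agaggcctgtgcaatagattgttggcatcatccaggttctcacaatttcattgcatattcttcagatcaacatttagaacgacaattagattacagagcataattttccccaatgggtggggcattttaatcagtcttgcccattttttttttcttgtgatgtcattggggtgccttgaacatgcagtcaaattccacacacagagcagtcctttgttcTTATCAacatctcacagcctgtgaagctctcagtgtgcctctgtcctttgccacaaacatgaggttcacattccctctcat
KLF1: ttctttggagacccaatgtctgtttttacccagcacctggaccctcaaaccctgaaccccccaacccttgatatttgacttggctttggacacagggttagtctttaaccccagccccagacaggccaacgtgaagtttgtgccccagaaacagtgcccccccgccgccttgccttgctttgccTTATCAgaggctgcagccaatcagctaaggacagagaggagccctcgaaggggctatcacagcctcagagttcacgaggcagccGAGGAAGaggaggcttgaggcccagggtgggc
TYROBP: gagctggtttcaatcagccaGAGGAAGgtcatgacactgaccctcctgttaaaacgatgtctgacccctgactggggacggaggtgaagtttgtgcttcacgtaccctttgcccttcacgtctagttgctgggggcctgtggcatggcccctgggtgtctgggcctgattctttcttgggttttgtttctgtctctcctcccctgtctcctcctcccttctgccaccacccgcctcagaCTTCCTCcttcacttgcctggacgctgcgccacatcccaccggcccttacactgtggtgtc
RHAG and KLF1 each hold the GATA letters once and on the other strand, at 31 and 66 bases before the start, and KLF1 holds GAGGAAG beyond it. TYROBP holds GAGGAAG 2 times, once on each strand, and no GATA letters. Of the 9 tested erythroid genes with a promoter in the RefSeq set 5 held the GATA letters, 55.6%, against 8.08% of 3093 tested genes and 16.6% of all 27305 promoters. Among genes called between the labels the share was 3 of 60 for those higher and 6 of 40 for those lower. GAGGAAG was found in 16.7% of those higher, 17.5% of those lower and 14.4% of all tested. A match of letters is a description and not a bound site.

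Genes that make ribosomes stood on the lower side. Assembly of a ribosome needs processing factors of the nucleolus that trim and fold ribosomal RNA before the subunits leave the nucleus. Of 27 tested members of this list 4 were called lower and 23 were not called, with a median of -0.64, where 1.49% of all genes were called lower; without the fold limit 19 were lower and 1 higher. RRP9, a component of the U3 particle that guides the first cuts, had 9.05, 11.6 and 9.53 FPKM in the controls labelled MOLM14 and 46.7, 44.3 and 37.5 FPKM in K562 controls. All 3 controls labelled MOLM14 were far below K562, with a difference of -2.08 ± 0.10 (SE, n = 3 each; limma adjusted p = 7.56e-05). NOP16, a factor of large subunit assembly, had 34.1, 35.3 and 35.1 FPKM under the label MOLM14 and 123, 116 and 113 FPKM in K562, a difference of -1.67. MRTO4, a maturation factor of the ribosomal stalk, and the RNA helicase DDX49 were lower by -1.48 and -1.30. NOP56, a core protein of methylation guide particles, differed by -1.16 (limma adjusted p = 0.273).

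The lower position of the ribosome assembly list was present under each scaling tried, with 3 to 7 members called and medians from -0.76 to -0.59. Removal of the GC and length trend left 2 called and a median of -0.58. In EVI1 libraries the list lay on the other side, with 1 member called higher and a median of 0.47, and RRP9, NOP16 and MRTO4 at 0.17, 0.54 and 0.25. The 22 ribosomal protein genes that were tested had a median of -0.04 by ranks, but -0.65 as deposited, -0.76 centred on the median and 0.17 with ranks over all rows, so that no direction is given for them. By ranks limma called none beyond 2-fold, also with 0 at an unadjusted p under 0.05 for that limit. Without the limit 7 were higher and 8 lower.

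By ranks, cell cycle and energy genes differed by less. Among 30 tested genes of G1/S and DNA replication limma called none beyond 2-fold, with 0 at an unadjusted p under 0.05. Without the limit 18 were lower and 2 higher, and the median was -0.41. Over all genes 37.2% were lower and 36.6% higher without the limit, which is the background for the other such counts here. MCM5 and MCM4, helicase subunits that open replication origins, both differed by -0.93. Mitosis genes lay on the other side, with a median of 0.30 and 0 of 27 called by limma beyond 2-fold. At an unadjusted p under 0.05 for that limit 2 were higher, and without the limit 14 were higher and 7 lower. KIF18A, a kinesin that aligns chromosomes, differed by 1.26 and NDC80, a kinetochore protein, by 1.24. Among 20 nuclear genes of oxidative phosphorylation NDUFB2, a subunit of complex I, was lower by -1.66, and the median was -0.39. That median ran from -0.65 to -0.19 over the alternative settings that kept all libraries and the 2-fold limit. NDUFB2 shares exons with genes on both strands. Of 17 genes of glycolysis and the pentose phosphate path PDK4, which passed the filter only through the label MOLM14, was called higher. Without the fold limit 12 were lower and 2 higher, and the median was -0.48. Over the same alternative settings the glycolysis median ran from -0.83 to -0.21, so its size depends on the setting. In the integrin and adhesion list of 12, ITGA4 and ICAM3, an adhesion molecule of leukocytes, were called lower, ICAM3 by -2.004. ITGA4 passed the filter only through the K562 controls.

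Single calls stood in a few other lists, and proteasome, interferon and sterol genes held none. Against the 2-fold limit, limma gave 0 of 20 proteasome genes at an unadjusted p under 0.05. Among 10 interferon-stimulated genes it gave 1 higher, and among 17 sterol and fatty acid genes 2 higher. Without the limit 8 proteasome genes were higher and 9 lower, where 36.6% and 37.2% of all genes were. For interferon-stimulated genes these counts were 5 and 4, and for sterol and fatty acid genes 10 and 5. SGK3, a kinase of the PI3K pathway related to AKT, had 9.93, 8.52 and 9.86 FPKM in the controls labelled MOLM14 and 1.72, 1.19 and 2.25 FPKM in K562 controls, a difference of 1.74 that was not called without the GC and length trend. It was the 1 called gene of 23 tested in the PI3K, AKT and mTOR list, whose median was 0.14. BCL2L13, a BCL2-like protein of the outer mitochondrial membrane, was higher by 1.29 as the 1 called gene of 8 tested in its family. CCNG1, a p53 target, was higher by 1.34, and ID2, an inhibitor of helix-loop-helix factors, lower by -1.47. The calls of BCL2L13, CCNG1 and ID2 were lost in 3, 4 and 3 of the 6 fits that left out 1 library, with limma adjusted p up to 0.106, 0.234 and 0.128. Of the 45 named genes that were called, 37 kept the call in all 6 such fits.

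Base composition moved with the difference between labels. The median GC content of the longest transcript was 41.8% for the 77 genes called higher, 54.1% for the 56 called lower and 47.6% for all tested, and median lengths were 4178, 2668 and 3761 bases. Over 5 equal groups of genes, ordered from low to high GC content, the median difference was 0.43, 0.25, -0.02, -0.31 and -0.50 in controls, and 0.50, 0.33, 0.07, -0.23 and -0.45 in the EVI1 libraries. These groups held 33, 17, 16, 5 and 6 genes called higher and 4, 3, 10, 18 and 21 called lower. By chromosome, the 314 tested genes on chromosome 19 had the lowest median difference, -0.45, at a median GC content of 60.2%, and the 92 on chromosome 4 the highest, 0.40, at 41.3%. With a trend of GC content and length removed, a step chosen after the data were seen, 81 genes were called higher and 41 lower, and 47 of the 77 and 27 of the 56 remained. ARHGAP15, PLA2G4A, ASNS, WAS, SCIN and SPARC were among those called in both fits. The part of base composition in these results was not tested.

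**Figure D5:**
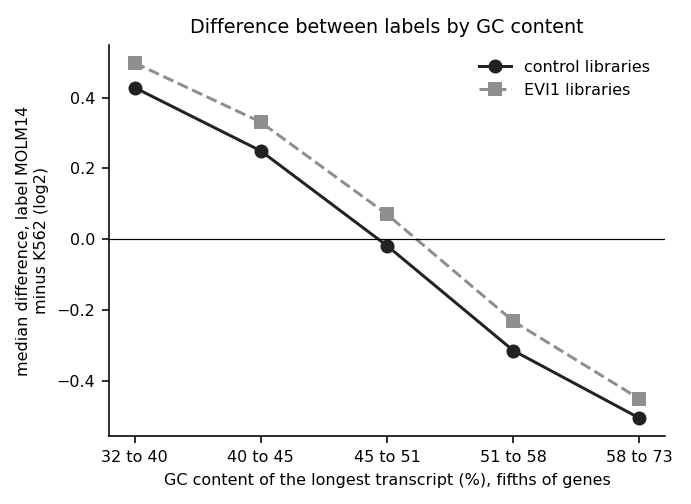
Median difference between labels, MOLM14 minus K562 (y axis, log2), in 5 equal groups of the tested genes by GC content of the longest transcript (x axis, percent); black circles are control libraries and grey squares EVI1 libraries. In controls the median is 0.43 in the group with the lowest and -0.50 in the group with the highest GC content, beside 0.50 and -0.45 in the EVI1 libraries.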

How the data were processed

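Total RNA of 12 libraries was sequenced after TruSeq library preparation, per the labels, although their extraction protocol names mouse small intestine as the tissue. Per the submitters' processing notes the authors used Cuffnorm, Cufflinks and STAR with hg38 or GRCh38 as the build; versions, strand use and batches are not given in the sources used here. The deposited values are FPKM per gene, scaled between libraries by Cuffnorm, and carry no counts, so the depth is known only roughly and no counting interval is given. Groups and replicate numbers came from the sample titles.

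Rows before the first identifier ending in _PAR_Y were kept, 5 symbols turned into dates were restored from the identifier, and genes with 1 FPKM or more in at least 3 of 6 control libraries were tested. Each library was quantile-normalised as log2(FPKM + 1). Only the 6 control libraries entered the main fit, limma's test against a 2-fold limit (treat, mean-variance trend, two-sided) with Benjamini-Hochberg adjustment over 3770 genes, called at an adjusted p under 0.05. The same fit was made on the 6 EVI1 libraries for the same genes. The script was tested on simulated data. R 4.3.3 with limma 3.58.1, and Python 3.11.15 with pandas 2.3.3, NumPy 2.4.6, SciPy 1.17.1 and matplotlib 3.10.9 were used. Positions, lengths and GC content came from GENCODE 29 and promoters from RefSeq.

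The members, the 41 gene lists and the tests were chosen with earlier results of these data known, and of 1689 distinct list genes 647 lay in the usable rows and 504 were tested. Lists are described by counts and medians, without a test, and some genes stand in several lists. Named genes are MECOM, the 10 largest called differences each way whose groups do not overlap, up to 3 called members per list, and markers at 10 FPKM or more; clone names were passed over, and DDX49, CARS, GARS, SARS, TRIB3, SLC1A4, NCKAP1L and all uncalled list members were named after their values were seen. Alternatives were other scalings, pseudocounts, filters, fold limits, a fit without the variance trend, a replicate block, leaving out each library, and removal of a GC and length trend.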

Additional observations from a re-analysis of the deposited data

Results flagged for a closer look

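For 10 genes limma called the difference between labels beyond 2-fold in opposite directions in the control and the EVI1 libraries. Since they were chosen for this, the change of the difference is a description and no test of it is given. ULBP1 and GCA averaged 0.264 and 0.119 FPKM in K562 controls. Both passed the filter only through the controls labelled MOLM14 and so had to differ there. Values are the label difference in EVI1 libraries minus that in controls, on the log2 scale. It was -5.09 for ULBP1, a ligand of the NK cell receptor NKG2D, with group means of 0.311 FPKM in EVI1 libraries labelled MOLM14, 7.58 in K562 EVI1 libraries, 5.95 in controls labelled MOLM14 and 0.264 in K562 controls. It was -4.94 for ADGRD1, an adhesion receptor, -4.78 for GCA, a calcium-binding protein of granulocytes, and -4.57 for HERPUD1. Among genes of amino acid metabolism and the stress response it was -4.62 for ASNS, -4.11 for PCK2, the mitochondrial enzyme that makes phosphoenolpyruvate, -3.62 for TRIB3 and -3.13 for CARS. It was -3.04 for KLHL24, a substrate adaptor of ubiquitin ligases. NEFH, the heavy neurofilament chain, stood alone in the other direction with 3.82; it averaged 18.0 FPKM in EVI1 libraries labelled MOLM14, 4.07 in K562 EVI1 libraries, 3.40 in controls labelled MOLM14 and 13.4 in K562 controls.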

How the results depend on the processing

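The 77 higher and 56 lower calls between controls became 1380 and 1401 without a fold limit and 11 and 4 at 4-fold; lower calls became 90 when centred on the median, 90 at a pseudocount of 0.1, 36 without a filter, and 139 in EVI1 libraries. Leaving out 1 library gave 56 to 86 higher and 37 to 68 lower in controls, and 49 to 69 higher and 118 to 136 lower in EVI1 libraries, where all 6 gave 70 and 139. In EVI1 libraries calls became 1505 and 1350 without a limit, 3 and 16 at 4-fold, and 43 higher without the GC and length trend, an alternative chosen after seeing the data. A replicate block gave 64 and 49 calls in controls and 75 and 142 in EVI1 libraries. Same-numbered controls deviated from their group means with correlations of -0.0055, 0.117 and -0.2102, and differently numbered ones with -0.3397 to 0.2852. With 3 libraries per group this cannot show whether replicate numbers mark a pairing, and batches are not given. Signs turned in EVI1 libraries for CTH -1.07, ASNS -1.86, STAP1 -0.51, XK -0.061, SOCS2 -0.33, XBP1 -0.066, BCL6 -0.61, RRP9 0.17, NOP16 0.54, MRTO4 0.25, MTHFD2 -0.66, HERPUD1 -2.23, RHAG -0.19, LYL1 0.24, RAB27A -0.58, ARHGAP6 -0.81, CD33 -2.30, GRN -0.85, SERPINB1 -0.75 and LAPTM4B -0.87. They turned without the GC and length trend for GATA1 0.25, TFRC -0.14, HBQ1 0.15, RHAG -0.076, LYL1 0.086, TGFB1 0.16 and KMT2A -0.042; as deposited for TFRC -0.040, RHAG -0.068 and TJP1 0.10; centred on the median for TFRC -0.15, RHAG -0.18 and DNMT3B -0.093; and with ranks over all rows for VIM 0.083 and TJP1 0.0073. The causes were not tested. FPKM without counts limits what can be said below about 1 FPKM.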

Other observations

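Cancer-testis genes, which are normally silent outside germ cells, did not move together. MAGEC2 was lower under the label MOLM14, while CTCFL, a germline relative of the insulator protein CTCF, had 110.3, 107 and 103 FPKM in the controls labelled MOLM14 and 60.2, 60.6 and 73.2 FPKM in K562 controls. MAGEB2 had 69.0, 70.6 and 61.2 FPKM under the label MOLM14 and 36.9, 36.3 and 45.4 FPKM in K562. The groups of both genes were separate, with differences of 0.83 and 0.79 that limma did not call beyond 2-fold.

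CD69, FYN and STAG2 were called higher, and were chosen for mention after their values were seen. CD69, an early activation marker of lymphocytes, had 54.9, 53.6 and 45.4 FPKM in the controls labelled MOLM14 and 8.00, 9.85 and 10.1 FPKM in K562 controls, a difference of 2.26 in controls and -1.30 in EVI1 libraries. FYN, a SRC-family kinase, had 41.2, 48.3 and 44.4 FPKM under the label MOLM14 and 13.4, 9.99 and 10.7 FPKM in K562, with 1.80 in controls and -1.02 in EVI1 libraries. STAG2, a cohesin subunit, had 246, 174 and 117 FPKM in the controls labelled MOLM14 and 44.9, 45.4 and 47.9 FPKM in K562 controls; it was higher by 2.00 in controls and 1.62 in EVI1 libraries, with a wide spread among the controls labelled MOLM14.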
